A study of Mus musculus with 20 samples.

Results

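XEN-iPS cells, pluripotent cells made from extraembryonic endoderm, were compared with the XEN cells they came from, over all genes and by pathway. The comparison used 4 of the 20 libraries of the series, 2 labelled XEN at day 0 and 2 labelled XEN-iPS. From each library the cells with at least 500 genes and under 5 UMIs (counted RNA molecules) of the fibroblast collagens Col1a1, Col1a2 and Col3a1 were kept, a limit meant to leave out feeder cells. This kept 22107 of the 110725 cells that pass the same limits in all 20 libraries, 6942 and 6155 in the XEN duplicates and 4128 and 4882 in the XEN-iPS duplicates. All tests used these library sums, since cells of the same library do not replicate a condition.

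Both groups were of the 3F-4 XEN line, derived from blastocysts and homozygous for 3 alleles: Col1A1 TetO-OKSmCh, a doxycycline-inducible cassette of Oct4, Klf4 and Sox2 with mCherry; R26 M2rtTA, its activator; and the Oct4-GFP reporter. XEN cells, the untreated group, were grown for 7 days on inactivated mouse embryonic fibroblast feeders in the reprogramming medium (serum and LIF with ascorbic acid and the GSK3β inhibitor CHIR99021) without doxycycline. XEN-iPS cells had been induced with doxycycline, taken as mCherry+ cells into that medium, sorted after 14 days as SSEA-1- GFP+ PDGFRα- cells, replated, sorted at day 28 as SSEA-1+ GFP+ PDGFRα- cells, and then grown on feeders for 7 days in serum and LIF without the 2 additives. The methods of the study call this last medium standard and name no doxycycline in it. The groups thus differed in medium as well as in cell state, which cannot be told apart here. Pou5f1 (Oct4) and Pdgfra relate to the sorting gates, and counts do not separate the RNA of the cassette from that of the endogenous Pou5f1, Klf4 and Sox2. A single line was studied, and its duplicates are described as technical, so that an SD, a standard error (SE) or a p-value below measures the spread between these libraries. The XEN-iPS duplicates differed in Y-linked RNA and in the level of several chromosomes, as given below, and whether they came from the same culture is not known.

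Primitive endoderm and epiblast are the sister lineages of the inner cell mass. XEN cells are the cultured form of the first, which GATA and SOX17 factors specify and which goes on to secrete the basement membrane of the parietal yolk sac. Naive pluripotent cells, the cultured form of the second, are held by OCT4, SOX2, NANOG and ESRRB, respond to LIF and BMP signals, and make the FGF4 and Nodal ligands that neighbouring cells read.

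The 4 libraries held 108205840 and 120619088 UMIs (XEN) and 71047749 and 52320828 UMIs (XEN-iPS) in the kept cells. The collagen limit removed no XEN cell, 131 cells of XEN-iPS replicate 1 and 1943 of replicate 2. Between 25 and 49 cell barcodes were shared by any pair of the 4 libraries among kept cells. Both XEN libraries and the ES libraries share a sequencing request number, and each XEN-iPS library has another, so this number and the group cannot be told apart; which libraries were sequenced together is not given in the sources used here. Levels are given as CPM, counts per 1000000 UMIs of the library. Levels in the 2 ES libraries (7624 and 9246 cells) stand beside some results with no test. These are of another line, iGata4-Gata6-Venus ES, heterozygous for Col1A1 TetO-Gata4, R26 M2rtTA and Gata6 H2B-Venus and grown in serum and LIF on gelatin, so a gap between XEN-iPS and ES is also one of line, genotype and culture.

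The XEN-iPS duplicates stood further apart than the XEN duplicates. Over the genes tested, the SD of the log2 ratio between duplicates was 0.344 in XEN and 0.728 in XEN-iPS. RNA of other cells remained after the collagen limit: the 25 fibroblast markers summed to 8.69 and 11.3 CPM in XEN and to 118 and 517 CPM in XEN-iPS, and 22 of the 25, which include the 3 collagens of the limit, were called higher. The 13 macrophage markers summed to 17.1 and 22.6 CPM in XEN, 23.1 and 137 CPM in XEN-iPS, and 72.9 and 68.6 CPM in ES. Of the 7 tested, 4 were called higher and 1 lower. Lyz2, the macrophage lysozyme, was at 0.141 CPM in XEN-iPS replicate 1 and 82.4 CPM in replicate 2. Csf1r went the other way, from 8.77 and 13.1 CPM in XEN to 0.183 and 1.09 CPM in XEN-iPS. Y-linked RNA also split the duplicates, at 3.20 CPM in XEN-iPS replicate 1 and 62.0 CPM in replicate 2 against 35.9 and 26.3 CPM in XEN, summed over 8 genes. XEN-iPS replicate 1 in turn held more of the genes of the 2-cell stage and of the endoderm, as given below. Some results that rest on 1 of these libraries are therefore also given without it. For the others only the level in each library is given.

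**Figure D1:**
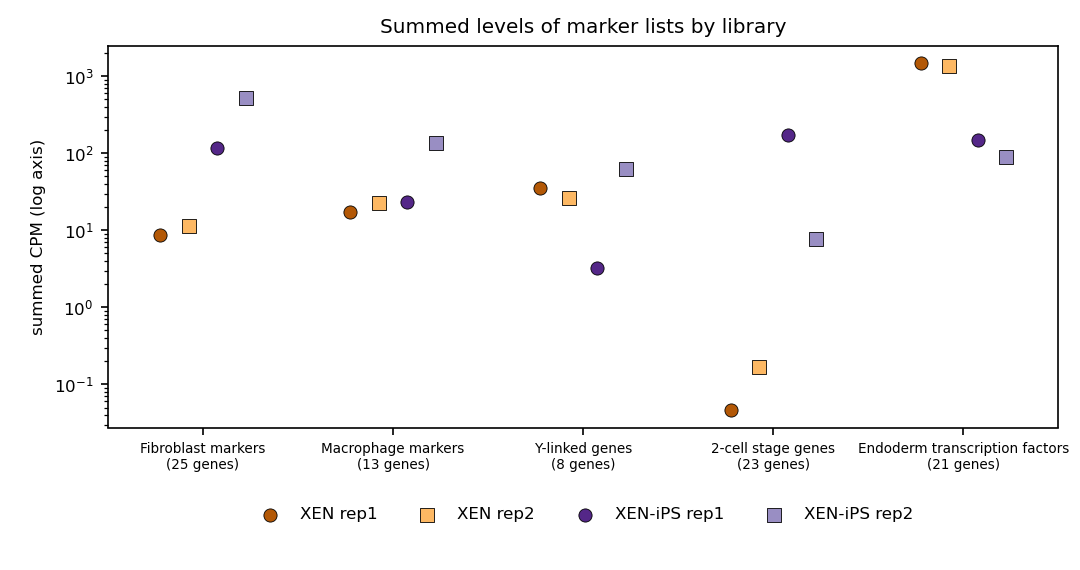
Summed CPM (log axis) of 5 lists of marker genes in each of the 4 libraries; each point is 1 library. Fibroblast and macrophage RNA was highest in XEN-iPS replicate 2, Y-linked RNA was lowest in XEN-iPS replicate 1, and RNA of endoderm transcription factors was lower in both XEN-iPS libraries than in XEN.

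By cell, most XEN-iPS cells carried pluripotency markers. At least 0.05% of a cell's UMIs came from 10 pluripotency markers (Pou5f1, Sox2, Nanog, Zfp42, Esrrb, Tfcp2l1, Klf2, Dppa3, Fgf4 and Utf1) in 3630 of 4128 and 3168 of 4882 XEN-iPS cells, and in 11 of 6942 and 13 of 6155 XEN cells. The remaining XEN-iPS cells were shallow, with a median of 4473.5 UMIs in the 498 cells of replicate 1 and 2195.5 UMIs in the 1714 cells of replicate 2, and they held 5.04% and 12.2% of their libraries' UMIs. In replicate 1, 10 XEN markers summed to 5193 CPM in these cells and to 172 CPM in the cells above the limit. Fibroblast RNA, without the 3 collagens that the cell limit used, was at 450 CPM against 12.3 CPM there, RNA of the 2-cell stage (6 markers) at 359 CPM against 38.4 CPM, and macrophage RNA (7 markers) at 21.8 CPM against 9.18 CPM. In replicate 2, the same fibroblast markers summed to 941 CPM against 62.5 CPM, the macrophage markers to 628.5 CPM against 44.2 CPM, and the 2-cell markers to 0.782 CPM against 1.89 CPM. The XEN markers summed to 1068 CPM against 93.0 CPM in replicate 2, of which Sparc, which fibroblasts also make, gave 898 CPM and Col4a1 105 CPM, while Gata4 was at 1.41 CPM, Gata6 at 2.66 CPM and Sox17 at 2.35 CPM. The cells below the limit thus held endoderm factors in replicate 1 (Gata6 at 146 CPM, Sox17 at 99.3 CPM) and little of them in replicate 2, and fibroblast RNA in both. RNA of 4 Y-linked genes was at 0.711 CPM in the cells above the limit and 49.7 CPM in those below it in replicate 1. In replicate 2 it was at 56.5 and 59.6 CPM.

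**Figure D2:**
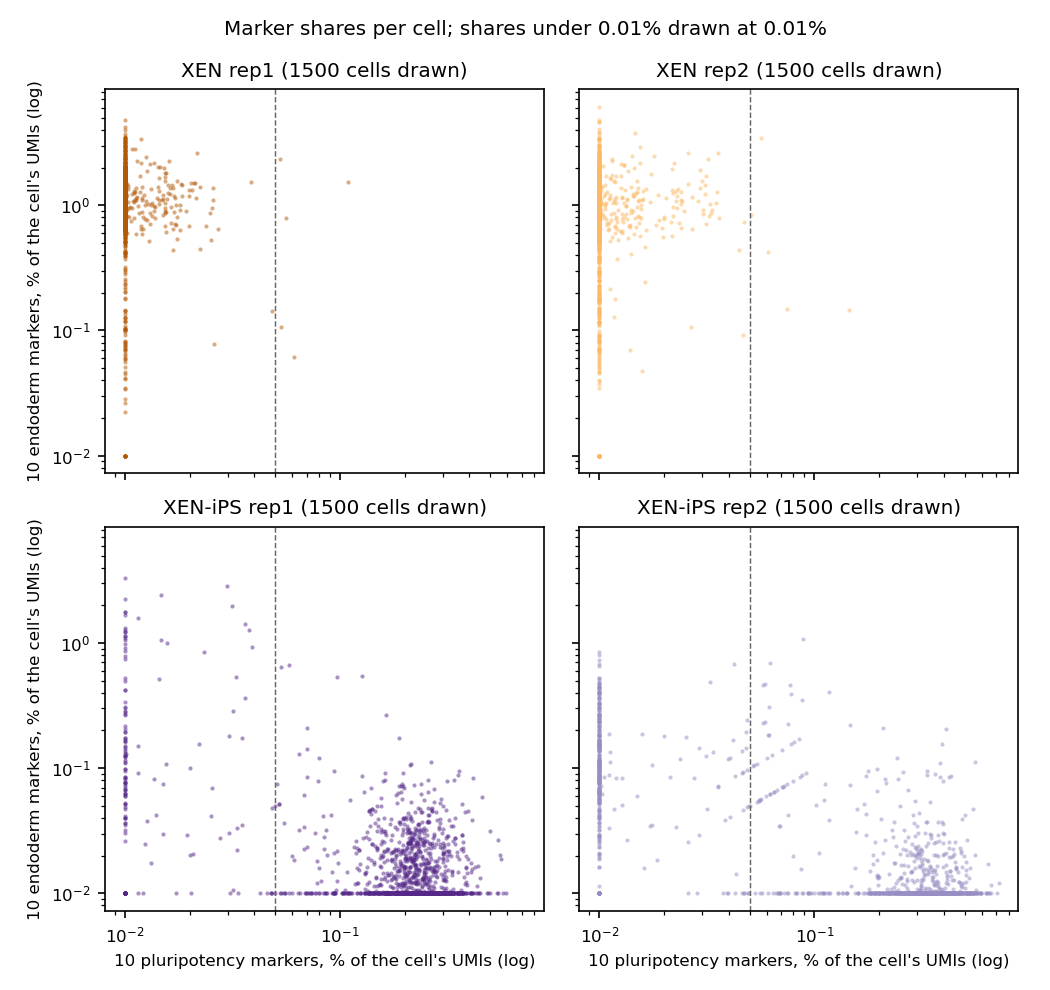
Share of a cell's UMIs from 10 endoderm markers (y axis, %, log) against that from 10 pluripotency markers (x axis, %, log), for 1500 cells drawn at random from each library; shares under 0.01% are drawn at 0.01%, and the dashed line is at 0.05%. Nearly all XEN cells lie to the left of the line and most XEN-iPS cells to its right, with a set of endoderm-marked cells left of the line in XEN-iPS replicate 1.

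Shares of cells with a UMI are given for single genes, with counting error only in the exact 95% binomial intervals; such shares also take in free RNA, so the share in cells that should lack the gene stands beside each. A UMI of Pou5f1 was found in 0.98% (0.761 to 1.24) and 1.36% (1.09 to 1.69) of XEN cells (median depth 15016.5 and 18976 UMIs), which should lack it, and in 78.5% (77.2 to 79.7) and 60.9% (59.5 to 62.2) of XEN-iPS cells (16651.5 and 10977.5 UMIs). With the 284 and 1025 XEN-iPS cells (234 and 359 XEN cells) under 2000 UMIs left out and the rest thinned to 2000 UMIs, these shares were 0.119% and 0.104% in XEN and 29.3% and 44.5% in XEN-iPS, so the order of the XEN-iPS duplicates turned with this change of depth and of cells. Gata6, the factor that starts the endoderm fate, had a UMI in 88.5% and 81.4% of XEN cells and in 4.14% and 0.369% of XEN-iPS cells (42.3%, 31.9%, 1.93% and 0.0519% after thinning). In XEN-iPS replicate 1 the share was 1.82% (1.41 to 2.31) in the cells with pluripotency markers, which should lack it (median 17984.5 UMIs), and 21.1% (17.6 to 24.9) in the others (4473.5 UMIs). In replicate 2 it was 0.253% (0.109 to 0.497) in the cells with pluripotency markers and 0.583% (0.280 to 1.07) in the others, and in ES it was 0.236% and 0.184%. The cells of replicate 2 differed in depth (medians of 14585 and 2195.5 UMIs), so these shares cannot show whether Gata6 was above background. Per UMI, Gata6 was there at 0.174 CPM in the cells with pluripotency markers and at 2.66 CPM in the others. In bulk sums, fewer cells of a type and less RNA per cell cannot be told apart.

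Of 15640 genes tested with edgeR's quasi-likelihood test, 3800 (24.3%) were called higher and 2092 (13.4%) lower in XEN-iPS than in XEN, by a Benjamini-Hochberg adjusted p below 0.05 with a log2 difference of 1 or more, which makes 37.7% in either direction. The median log2 fold change over all genes tested was 0.11, and it went from -0.011 without XEN-iPS replicate 2 to 0.20 without XEN replicate 2. Leaving out XEN replicate 1 left 1684 higher and 930 lower, and leaving out XEN replicate 2 left 2427 and 1000, against 3843 and 2429 without XEN-iPS replicate 1 and 4221 and 3303 without XEN-iPS replicate 2. With feeder cells kept, 3357 and 1262 were called, and no gene called here was called in the other direction under any setting tried.

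Genes gained and genes lost differed in how far they were off in the other state. Of the 3800 genes called higher, 2249 (59.2%) were under 0.1 CPM in XEN and 551 had no UMI there. Of the 2092 called lower, 167 (7.98%) were under 0.1 CPM in XEN-iPS and 24 had no UMI. Within the XEN-iPS cells that passed the pluripotency marker limit, 212 (10.1%) of the 2092 were under 0.1 CPM in replicate 1 and 229 (10.9%) in replicate 2. The XEN libraries were the deeper ones, so a level of 0.1 CPM rests on more UMIs there. The filter on low counts keeps a gene that is high in 1 group alone, and genes at such low levels in XEN were tested because they were on in XEN-iPS. The list counts below hold such genes, and the lists are described and not tested as groups. Of the members tested, 6 core and naive, 6 formative and primed, 8 chemokine, 10 fibroblast and 5 mesoderm and neural genes had 0 to 3 UMIs in XEN. So did 5 Wnt genes, 4 of the Nodal, activin and TGF-beta pathway, and 3 each of the FGF, epithelial and interferon lists. Some other lists also held such genes.

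The genes with the highest fold changes among those over 50 CPM were mostly of the pluripotent state. Tcl1, a coactivator of AKT kinase, had no UMI in either XEN library and was at 65.8 and 74.1 CPM in XEN-iPS, at least 5284-fold higher against a floor of 3 UMIs over the XEN group. Dppa3 (Stella), which protects the maternal genome from demethylation, had 1 UMI in all of XEN and 172 and 103 CPM in XEN-iPS, a ratio of 32663 with a counting interval of 5862 to 1290198. Stmn2, a regulator of microtubules known from neurons, rose from 0.0277 and 0.0083 CPM to 275 and 367 CPM (log2 fold change 13.96 ± 0.62 (SE), adjusted p = 0.000258). The RNA-binding protein gene Dppa5a rose from 0.518 and 0.622 CPM to 8153 and 6844 CPM (13.59 ± 0.66, adjusted p = 0.000258). None of these pairs of duplicates overlapped with the other group, and the genes were picked for their high fold changes. The SE comes from the test statistic, and for genes with few UMIs in XEN it can be too small. The ES libraries held 504 and 385 CPM of Stmn2 and 5247 and 4052 CPM of Dppa5a.

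The genes with the lowest fold changes were of varied kinds. Adora1, an adenosine receptor, fell from 84.5 and 81.6 CPM to 0.408 and 0.115 CPM (-8.31 ± 0.67, adjusted p = 0.000631), and Capn6, a calpain without protease activity, from 109 and 89.8 CPM to 0.929 and 0.363 CPM (-7.29 ± 0.60, adjusted p = 0.000651). The gastrokines Gkn1 and Gkn2, secreted proteins of the gut lining, were at 43.6 and 132 CPM and at 141 and 224 CPM in XEN. In XEN-iPS they were at 0.873 and 0.0191 CPM and at 2.11 and 0.0765 CPM, and their log2 fold changes of -7.63 and -7.39 went to -12.27 and -11.39 without XEN-iPS replicate 1. By level, the most abundant gene that fell was Sparc, and the one that rose was Dppa5a.

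**Figure D3:**
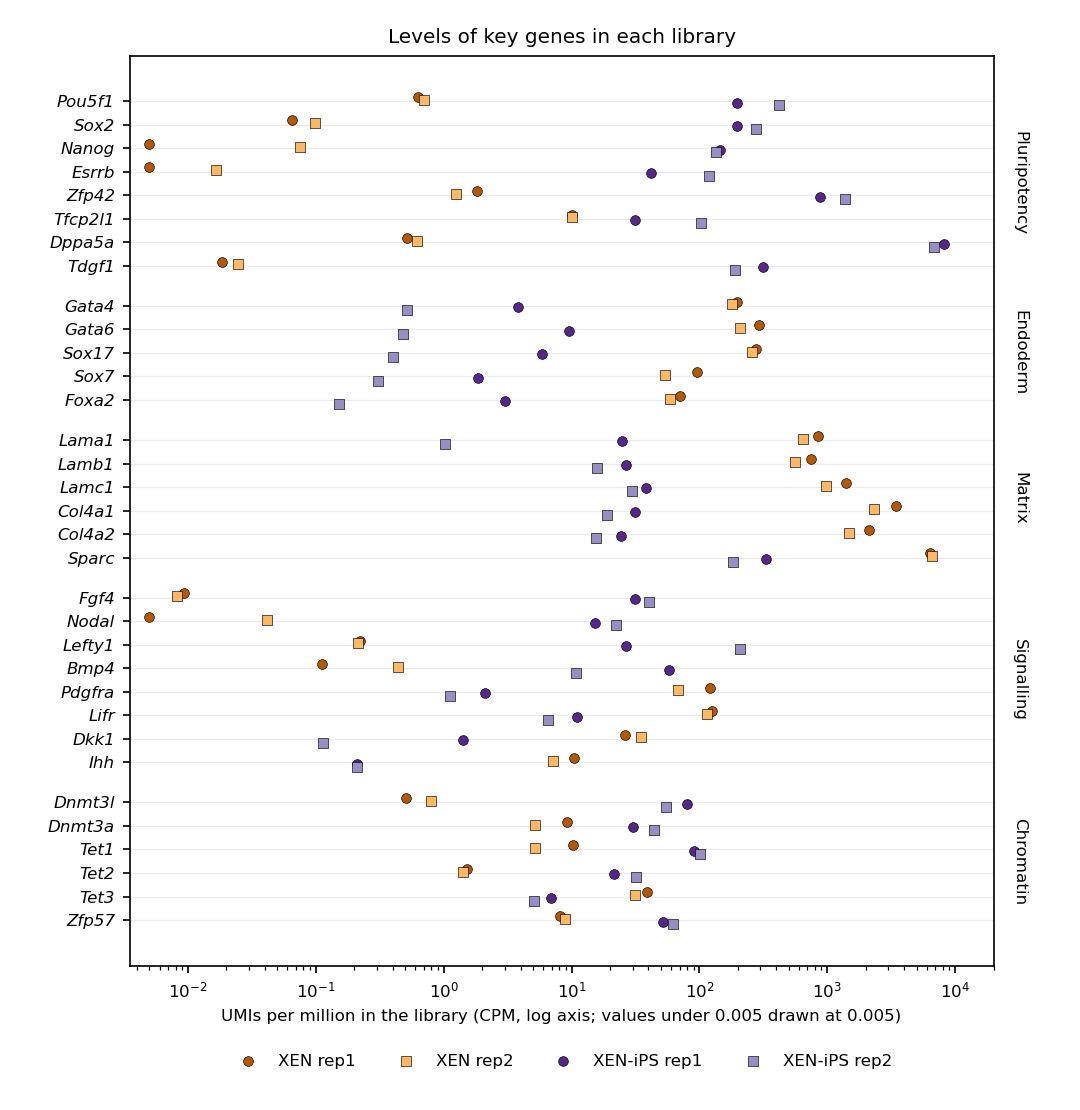
CPM (log axis) of genes from 5 groups in each library; each point is 1 library, brown for XEN and purple for XEN-iPS, circles for replicate 1 and squares for replicate 2. The groups do not overlap for any gene shown, and these genes were chosen with earlier results of these data known. The XEN-iPS duplicates lie far apart for endoderm factors, Lama1 and Dkk1, with replicate 1 higher, and for Lefty1, with replicate 2 higher.

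**Figure D4:**
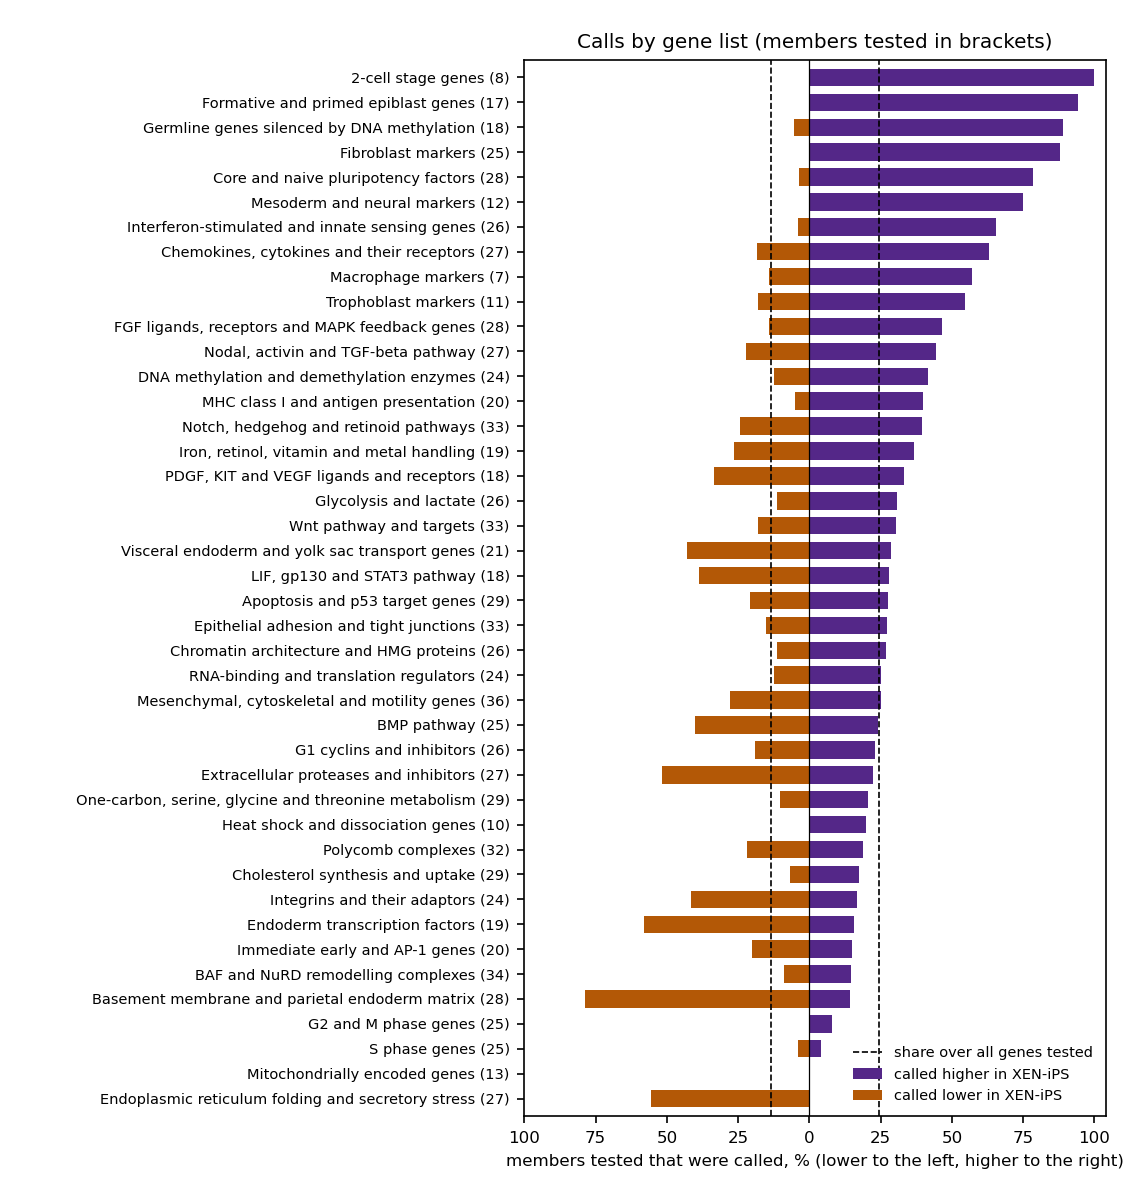
Share of tested members called higher (right) and lower (left) in XEN-iPS for each gene list, in %, with the number of members tested in brackets; dashed lines mark the shares over all genes tested, 24.3% and 13.4%. The 2-cell, epiblast, germline, fibroblast and core pluripotency lists reach furthest to the right. The basement membrane, endoderm factor, secretory stress and protease lists reach furthest to the left. The S phase list and the G2 and M phase list have few calls.

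Core and naive pluripotency genes rose together. Of 28 measured, 22 were called higher, 1 lower and 5 neither, with a median log2 fold change of 9.06 against 0.11 over all genes; leaving out 1 library at a time gave 20 to 22 higher, with Klf4, the 1 lower, lost without either XEN library. Zfp42 (Rex1), a zinc finger protein of naive cells, rose from 1.83 and 1.26 CPM to 882 and 1369 CPM (9.42 ± 0.52, adjusted p = 0.000329), and both XEN-iPS levels lay above the 785 and 562 CPM of ES. Tdgf1 (Cripto), the co-receptor of Nodal, rose from 0.0185 and 0.0249 CPM to 316 and 189 CPM (13.34 ± 0.69, adjusted p = 0.000305), with 316 and 317 CPM in ES. Both genes had the XEN libraries far below the XEN-iPS libraries, but not every member of the list was off in XEN.

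Klf4, which belongs to the same list, was the member called lower. It was at 169 and 141 CPM in XEN and at 62.4 and 73.3 CPM in XEN-iPS (-1.28 ± 0.30, adjusted p = 0.0147), with 113 CPM in each ES library. Its call was lost without XEN replicate 1 (-1.30, adjusted p = 0.121) or XEN replicate 2 (-1.35, adjusted p = 0.0985). Klf2, a related factor of the naive state, was at 16.8 and 26.6 CPM in XEN and rose to 115 and 185 CPM (2.66 ± 0.41, adjusted p = 0.00404). Tfcp2l1, a target of STAT3, rose from 10.1 CPM in both XEN libraries to 31.5 and 103 CPM (2.60 ± 0.52, adjusted p = 0.00926), with 156 and 134 CPM in ES. The call of Tfcp2l1 was lost without XEN replicate 1 (2.47, adjusted p = 0.0563), and its fold change was 1.53 without XEN-iPS replicate 2. Sall4 (196 and 169 CPM against 102 and 185 CPM), Lin28a (66.9 and 52.8 CPM against 32.5 and 47.4 CPM) and Trim71 (51.6 and 36.9 CPM against 58.8 and 94.7 CPM) did not pass the test. These 3 regulators, known from pluripotent cells, were thus well expressed in XEN cells too.

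Genes of the formative and primed epiblast, the states that follow naive pluripotency, rose as well. Of 17 tested, 16 were called higher and none lower (13 higher without XEN replicate 1), with a median log2 fold change of 5.93. Otx2, the factor that starts the exit from the naive state, had 1 UMI in XEN and 15.1 and 11.6 CPM in XEN-iPS, a ratio of 3118 (559 to 123224), beside 9.89 and 11 CPM in ES. Fgf5, the usual marker of the formative state, had 1 UMI in XEN and 3.65 and 0.994 CPM in XEN-iPS, a ratio of 577 (103 to 22856). Dnmt3b was the exception in this list, at 65.3 and 36.6 CPM in XEN and 63.7 and 29.4 CPM in XEN-iPS (-0.16 ± 0.47, adjusted p = 0.819).

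The promoter of Nanog is shown because OCT4 and SOX2, both of whose RNAs rose, are known to bind a joint element in it. Nanog was at 0 and 0.0746 CPM in XEN and at 145 and 136 CPM in XEN-iPS (11.66 ± 0.98, adjusted p = 0.000688). The window runs from 250 bases before to 50 after the start of the gene in RefSeq (GRCm38.p6, chr6:122707239-122707538, plus strand), with the octamer and SOX element (TTTGCAT, any base, ACAATG) in capitals.
Nanog: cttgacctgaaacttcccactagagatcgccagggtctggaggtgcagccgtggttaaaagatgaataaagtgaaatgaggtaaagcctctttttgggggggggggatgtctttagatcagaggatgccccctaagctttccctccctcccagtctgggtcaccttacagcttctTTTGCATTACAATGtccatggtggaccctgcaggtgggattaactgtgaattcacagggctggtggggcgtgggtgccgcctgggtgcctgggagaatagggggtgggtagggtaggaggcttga
This exact string, searched on both strands, was found in 1 of 27025 promoter windows (0.0037%), that of Nanog, where it starts 75 bases before the gene. Only 1 base of the string was free, so octamer and SOX sites with other letters were not counted. The share thus does not show that such sites are rare. The octamer ATTTGCAT was found in 532 windows (1.97%) and in 1 of the 19 list members with a window, Zfp42. These matches describe the letters of the windows only.

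Germline genes that DNA methylation keeps silent in somatic cells were on in XEN-iPS at low levels. Of 18 tested, 16 were called higher and 1 lower (Brdt), with a median log2 fold change of 6.6, or 5.69 with the 2 genes that had no UMI in XEN at their bound. Of the 18, 8 had 0 to 3 UMIs in all of XEN and passed the filter on low counts through XEN-iPS, so these counts are descriptions. Without XEN replicate 1, 10 were called higher, and with cells weighted equally and limma 7. The call of Brdt was lost without XEN replicate 1 (-2.19, adjusted p = 0.138), without XEN replicate 2 (-1.57, adjusted p = 0.303), with feeder cells kept, after thinning and with limma. Hormad1, which marks unsynapsed chromosomes in meiosis, had 2 UMIs in XEN and was at 10.3 and 6.63 CPM in XEN-iPS, a ratio of 1002 (277 to 8281), and at 1.00 and 0.702 CPM in ES. Mael, a factor of transposon silencing in the germline, had 1 UMI in XEN and was at 7.32 and 1.95 CPM, a ratio of 1154 (206 to 45641). Dazl, an RNA-binding protein of germ cells, was at 0.111 and 0.0415 CPM in XEN and 14.0 and 1.11 CPM in XEN-iPS (6.63 ± 1.38, adjusted p = 0.0105), and its fold change was 3.70 without XEN-iPS replicate 1. The list summed to 5.79 and 6.27 CPM in XEN, 189 and 98.1 CPM in XEN-iPS and 48.5 and 39.3 CPM in ES. Each XEN-iPS library lay above both ES libraries.

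The promoter of Hormad1 is shown for the letters that this list shared. The E-box CACGTG, which E2F6, MGA and MAX complexes read, stood in 11 of the 15 tested members with a window (73.3%) and in 2187 of 27025 windows (8.09%). The window of Hormad1 (RefSeq, GRCm38.p6, chr3:95559427-95559726, plus strand) held 2 matches, in capitals.
Hormad1: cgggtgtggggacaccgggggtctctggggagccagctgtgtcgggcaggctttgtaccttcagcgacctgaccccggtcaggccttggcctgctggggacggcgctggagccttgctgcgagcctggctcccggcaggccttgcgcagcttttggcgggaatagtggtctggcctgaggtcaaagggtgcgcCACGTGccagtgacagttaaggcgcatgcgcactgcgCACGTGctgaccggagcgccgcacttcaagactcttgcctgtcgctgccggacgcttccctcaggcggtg

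Genes of the 2-cell stage differed between the XEN-iPS duplicates. Of 23 genes, 8 passed the filter on low counts and those 8 were called higher; they passed the filter only through XEN-iPS, so their count is a description. The 20 genes of the list that the tables hold summed to 0.0462 and 0.166 CPM in XEN, 173 and 7.76 CPM in XEN-iPS and 0.511 and 0.109 CPM in ES. Zscan4c, the usual marker of 2-cell-like cells, had a UMI in 175 of 4128 cells of XEN-iPS replicate 1 (4.24%, 3.65 to 4.90) and in 3 of 4882 cells of replicate 2 (0.0615%, 0.0127 to 0.179), and in none of the 6942 and 6155 XEN cells. With cells weighted equally and limma, none of the 8 was called (0 higher), among them Zscan4c (3.23, adjusted p = 0.186). Without XEN-iPS replicate 1, 6 of the genes were called and the fold change of Zscan4d went from 9.43 to 5.32.

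Endoderm transcription factors fell in XEN-iPS. Of 19 tested, 11 were called lower, 3 higher and 5 neither, with a median log2 fold change of -2.77, and leaving out 1 library at a time gave 10 to 12 lower. Gata6 was at 294 and 210 CPM in XEN and at 9.54 and 0.478 CPM in XEN-iPS, and Sox17 at 279 and 256 CPM and at 5.90 and 0.401 CPM. Without XEN-iPS replicate 1 the fold change of Gata6 went from -5.64 (adjusted p = 0.0142) to -9.20. Sox7, a SOX17 relative of the parietal endoderm, fell from 95.5 and 54.3 CPM to 1.86 and 0.306 CPM (-6.10 ± 0.89, adjusted p = 0.00343). Replicate 1 was the higher XEN-iPS library for each of these 3 factors. In the cells of replicate 1 above the pluripotency marker limit Gata6 was at 2.28 CPM, and in the cells below it at 146 CPM. The 3 factors called higher were Eomes, Gsc and Prdm1, which also act in the epiblast, mesendoderm and germline; Gsc lost its call without XEN replicate 1 (4.72, adjusted p = 0.0514) and went from 5.75 to 9.67 without XEN replicate 2. Prdm1 (Blimp1) rose from 0.0370 and 0.0249 CPM to 7.84 and 18.5 CPM (8.56 ± 0.69, adjusted p = 0.000631), with 1.13 and 2.06 CPM in ES.

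Among the lists, basement membrane genes had the largest fall in summed level. Of 28 matrix genes, 22 were called lower, 4 higher and 2 neither, with a median log2 fold change of -4.12; leaving out 1 library at a time gave 20 to 22 lower, with 1 higher without XEN replicate 1 and 2 without XEN replicate 2. Together the 28 genes took 19520 and 15671 CPM in XEN, 960 and 922 CPM in XEN-iPS and 529 and 565 CPM in ES. Col4a1 and Col4a2, the chains of type IV collagen, fell from 3423 and 2334 CPM to 31.1 and 18.9 CPM (-6.90 ± 0.56, adjusted p = 0.000631) and from 2129 and 1468 CPM to 24.6 and 15.4 CPM (-6.54 ± 0.53, adjusted p = 0.000631). The laminin chain genes Lamb1 (742 and 562 CPM to 26.5 and 15.7 CPM, -5.0 ± 0.48, adjusted p = 0.000964) and Lamc1 (1409 and 977 CPM to 38.1 and 29.8 CPM, -5.20 ± 0.44, adjusted p = 0.000697) fell alike, and the duplicates of each group lay close together. Lama1, their partner in laminin-111, was at 845 and 643 CPM in XEN and at 24.8 and 1.03 CPM in XEN-iPS (-5.85 ± 1.39, adjusted p = 0.0164; -9.66 without XEN-iPS replicate 1). Sparc, a secreted collagen-binding protein, was at 6356 and 6597 CPM in XEN and 330 and 182 CPM in XEN-iPS (-4.73 ± 0.54, adjusted p = 0.00159). Col18a1, the collagen of endostatin, went the other way, from 0.185 and 0.133 CPM to 79.3 and 83.2 CPM (8.91 ± 0.41, adjusted p = 0.000258), with 67.1 and 85.9 CPM in ES. Vimentin, a filament protein of mesenchymal and parietal endoderm cells, did not pass the test (187 and 120 CPM against 90.2 and 228 CPM, -0.05 ± 0.45, adjusted p = 0.938). Its level in XEN-iPS was higher in the cells without pluripotency markers, at 796 and 1050 CPM there and 52.8 and 114 CPM in the other cells, and fibroblast markers moved with it.

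The genes of the type IV collagen pair share a start region, so the window of Col4a2 is shown. Their RefSeq start sites lie 21 bases apart on opposite strands, head to head, and the 2 windows overlap by 78 bases. The window (GRCm38.p6, chr8:11312555-11312854, plus strand) held 33 CG pairs, and capitals mark a CCAAT box 32 bases before the start, which 11096 of 27025 windows (41.1%) and 10 of 22 list members also had in either strand.
Col4a2: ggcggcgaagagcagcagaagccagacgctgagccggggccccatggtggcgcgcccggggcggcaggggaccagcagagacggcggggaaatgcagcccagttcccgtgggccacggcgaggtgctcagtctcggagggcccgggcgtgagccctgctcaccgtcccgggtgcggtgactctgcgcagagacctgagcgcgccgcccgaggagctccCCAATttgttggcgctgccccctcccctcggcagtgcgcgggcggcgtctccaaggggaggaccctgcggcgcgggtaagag

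Among folding and secretory genes of the endoplasmic reticulum, where matrix proteins are made, calls were lower ones. Of 27 tested, 15 were called lower, none higher and 12 neither, with a median log2 fold change of -1.24; leaving out XEN replicate 1 left 8 lower. Kdelr3, a receptor that returns folding enzymes to the reticulum, fell from 237 and 248 CPM to 18.9 and 10.1 CPM (-4.13 ± 0.47, adjusted p = 0.00168), Calr (calreticulin) from 2349 and 1446 CPM to 384 CPM in both XEN-iPS libraries (-2.37 ± 0.39, adjusted p = 0.00475), and Herpud1, part of the degradation machinery, from 30.1 and 32.0 CPM to 5.87 and 4.05 CPM (-2.72 ± 0.37, adjusted p = 0.00286). Hspa5 (BiP), the main chaperone, was at 413 and 256 CPM and at 98.9 and 78.0 CPM (-1.98 ± 0.38, adjusted p = 0.00768), and its call was lost without XEN replicate 1 (-1.77, adjusted p = 0.0550). Xbp1 and Ddit3, factors of the unfolded protein response, did not pass the test (-0.57 ± 0.33 and -0.81 ± 0.45). The XEN-iPS levels of Hspa5 and Calr lay beside those of ES, at 93.3 and 78.3 CPM and at 340 and 371 CPM.

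The promoter of Hspa5 is shown because it holds an element known from genes of this list. The endoplasmic reticulum stress element (CCAAT and CCACG with 9 bases between them, searched on both strands) stood in 7 of the 22 tested members with a window (31.8%) and in 37 of 27025 windows (0.137%). The window (RefSeq, GRCm38.p6, chr2:34771840-34772139, plus strand) has the element in capitals, 65 bases before the start.
Hspa5: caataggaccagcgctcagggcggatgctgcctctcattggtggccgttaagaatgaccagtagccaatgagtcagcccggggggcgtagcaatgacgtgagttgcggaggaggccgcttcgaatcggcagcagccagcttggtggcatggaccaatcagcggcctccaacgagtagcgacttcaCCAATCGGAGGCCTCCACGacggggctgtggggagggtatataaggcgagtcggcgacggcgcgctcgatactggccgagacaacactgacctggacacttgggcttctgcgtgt

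Genes of the visceral endoderm, which carries nutrients to the embryo, moved both ways. Of those tested, 28.6% were called higher and 42.9% lower, against 24.3% and 13.4% of all genes. Of 21 tested, 9 were called lower and 6 higher (12 lower without XEN-iPS replicate 1), with a median log2 fold change of -1.98. Dab2, an endocytic adaptor, fell from 256 and 160 CPM to 13.3 and 7.43 CPM (-4.37 ± 0.48, adjusted p = 0.00148), and Fabp3, a fatty acid carrier, from 2019 and 4832 CPM to 151 and 278 CPM (-4.15 ± 0.63, adjusted p = 0.00379). Apoe, the lipid transport protein, rose from 9.58 and 12.5 CPM to 327 and 263 CPM (4.65 ± 0.42, adjusted p = 0.000813), with 517 and 511 CPM in ES. The yolk sac transport proteins Ttr (64.7 and 49.1 CPM to 10.5 and 0.459 CPM, adjusted p = 0.0643) and Apoa1 (0.129 and 0.340 CPM to 0.999 and 0.516 CPM, adjusted p = 0.172) did not pass the test.

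In the FGF pathway, ligands and receptors moved in both directions. Calls were 46.4% higher and 14.3% lower among the genes tested, against 24.3% and 13.4% of all genes. Of 28 genes tested, 13 were called higher and 4 lower (10 and 2 without XEN replicate 1), with a median log2 fold change of 1.01. Among ligands, Fgf4, the signal of the epiblast, had 2 UMIs in XEN and was at 31.3 and 40.6 CPM in XEN-iPS, a ratio of 4032 (1116 to 33307), while Fgf3 fell from 54.6 and 36.6 CPM to 2.84 and 1.20 CPM (-4.52 ± 0.55, adjusted p = 0.00195). Among receptors, Fgfr1 rose from 1.62 and 1.48 CPM to 30.6 and 40.2 CPM (4.41 ± 0.34, adjusted p = 0.000576), Fgfr3 fell from 12.2 and 11.9 CPM to 0.676 and 0.650 CPM (-4.27 ± 0.42, adjusted p = 0.00101), and Fgfr2 did not pass the test (3.57 and 3.20 CPM against 5.94 and 4.97 CPM, 0.61 ± 0.42). The 3 receptor genes thus did not move together. Of the targets and feedback genes, Etv5 (4.98 ± 0.42), Egr1 (4.72 ± 0.68) and Spry4 (2.76 ± 0.49) rose (adjusted p = 0.000697, 0.00334 and 0.00607), and Spry2 (0.04 ± 0.31) and Dusp6 (0.48 ± 0.46) did not pass the test. Etv5 was at 3.56 and 5.13 CPM in XEN and at 119 and 181 CPM in XEN-iPS, above the 76.8 and 95.5 CPM of ES.

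Genes of the PDGF, KIT and VEGF ligands and receptors also moved both ways. Of those tested, 33.3% were called in each direction, against 24.3% higher and 13.4% lower over all genes. Pdgfa rose from 11.9 and 19.0 CPM to 133 and 93.0 CPM (2.78 ± 0.43, adjusted p = 0.00409), and the level of its receptor Pdgfra, by which cells were sorted, was 121 and 67.8 CPM in XEN and 2.10 and 1.13 CPM in XEN-iPS. Over the 18 PDGF, KIT and VEGF genes tested, 6 were called higher and 6 lower (2 and 4 without XEN replicate 1), with a median log2 fold change of 0.25. Flt1, a VEGF receptor, fell from 59.9 and 65.8 CPM to 3.19 and 4.45 CPM (-4.15 ± 0.34, adjusted p = 0.000662), and Kit, the receptor of stem cell factor, from 83.4 and 55.9 CPM to 14.0 and 21.9 CPM (-2.04 ± 0.33, adjusted p = 0.00468).

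LIF was in the medium of both groups, and the gene of its receptor was lower in XEN-iPS. Over this pathway, 27.8% of genes tested were called higher and 38.9% lower, against 24.3% and 13.4% of all genes. Lifr fell from 126 and 116 CPM to 11 and 6.5 CPM (-3.85 ± 0.42, adjusted p = 0.00144), near the 16.7 and 16.6 CPM of ES. The co-receptor Il6st (25.1 and 17.4 CPM against 11.8 and 16.3 CPM), Stat3 (71.8 and 47.0 CPM against 29.2 and 44.8 CPM) and its feedback target Socs3 (22.9 and 10.6 CPM against 32.6 and 30.9 CPM) did not pass the test. Of the 18 genes of this pathway, 5 were called higher and 7 lower, with a median log2 fold change of -0.48; without XEN replicate 1, 1 and 2 were called, and without XEN replicate 2, 4 and 2. Gbx2, a STAT3 target, rose from 0.102 and 0.133 CPM to 18.0 and 9.73 CPM (6.79 ± 0.62, adjusted p = 0.000825), still under the 80.5 and 93.8 CPM of ES.

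Nodal and its inhibitors of the Lefty family were higher in XEN-iPS, and follistatin lower. Over the pathway, 44.4% of genes tested were called higher and 22.2% lower, against 24.3% and 13.4% of all genes. Of 27 genes of the Nodal, activin and TGF-beta pathway, 12 were called higher and 6 lower (9 and 4 without XEN replicate 1 and 11 and 9 without XEN-iPS replicate 2), with a median log2 fold change of 1.41. Nodal was at 0 and 0.0415 CPM in XEN and at 15.3 and 22.4 CPM in XEN-iPS (9.56 ± 0.89, adjusted p = 0.000871). Its inhibitor Lefty1 rose from 0.222 and 0.216 CPM to 26.8 and 208 CPM (8.90 ± 1.09, adjusted p = 0.00205), against 28.8 and 24.3 CPM in ES. Lefty2 had 2 UMIs in XEN and 32.9 and 228 CPM in XEN-iPS, so that XEN-iPS replicate 2 stood above replicate 1 and ES for both inhibitors. Follistatin (Fst), which binds activin, fell from 365 and 268 CPM to 13.2 and 8.20 CPM (-4.94 ± 0.46, adjusted p = 0.000861). Inhba, the activin subunit, had 3 UMIs in XEN and was at 16.6 and 32.6 CPM in XEN-iPS, a ratio of 1782 (609 to 8648), but at 0.511 and 0.0724 CPM in ES; fibroblast markers moved with this difference, and their part in it was not tested.

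In the BMP pathway 2 ligands moved in opposite directions. Calls were 24% higher and 40% lower among the genes tested, against 24.3% and 13.4% of all genes. Bmp4 rose from 0.111 and 0.439 CPM to 58.2 and 10.9 CPM (6.88 ± 1.14, adjusted p = 0.00499), with 84.3 and 81.4 CPM in ES. Bmp2, the ligand of the endoderm, fell from 43.7 and 29.9 CPM to 2.77 and 0.210 CPM (-4.61 ± 1.05, adjusted p = 0.0140; -7.60 without XEN-iPS replicate 1), and its antagonist Noggin (Nog) from 51.0 and 46.6 CPM to 3.55 and 0.248 CPM (-4.68 ± 1.08, adjusted p = 0.0146; -7.78 without that library). Of 25 genes tested, 6 were called higher and 10 lower (3 and 7 without XEN replicate 1), with a median log2 fold change of -1.13. With feeder cells kept, 6 genes of this list were called higher and 5 lower. The BMP targets of the Id family did not move as 1. Id2 fell from 87.0 and 57.9 CPM to 15.8 and 8.52 CPM (-2.62 ± 0.43, adjusted p = 0.00504), Id1 did not pass the test (1.31 ± 0.59, adjusted p = 0.127), and Id3 rose from 10.8 and 21.1 CPM to 92.3 and 67.4 CPM (2.22 ± 0.46, adjusted p = 0.0106), a call lost without XEN replicate 1 (1.68, adjusted p = 0.0875).

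Wnt genes are read beside the media, since the GSK3β inhibitor, which turns this pathway on, was in the XEN medium only. Of the Wnt genes tested, 30.3% were called higher and 18.2% lower, against 24.3% and 13.4% of all genes. Among the higher ones, 5 had 0 to 3 UMIs in XEN and passed the filter on low counts only through XEN-iPS. Of 33 genes tested, 10 were called higher and 6 lower (13 and 10 without XEN-iPS replicate 2), with a median log2 fold change of 0.80. The ligands Wnt4 (11.8 and 16.4 CPM to 0.535 and 0.726 CPM, -4.60 ± 0.45, adjusted p = 0.00105) and Wnt11 (8.60 and 12.8 CPM to 0.380 and 0.325 CPM, -5.01 ± 0.52, adjusted p = 0.00126) fell, as did the antagonist Dkk1 (26.2 and 34.8 CPM to 1.41 and 0.115 CPM, -5.33 ± 1.02, adjusted p = 0.00784; -8.23 without XEN-iPS replicate 1). Lef1, a nuclear partner of β-catenin, had 3 UMIs in XEN and 13.1 and 12.4 CPM in XEN-iPS, a ratio of 974 (333 to 4730). Axin2, the target most used to read pathway activity, did not pass the test, at 1.86 and 0.531 CPM in XEN and 2.93 and 6.71 CPM in XEN-iPS (1.94 ± 0.71, adjusted p = 0.0715). The XEN and XEN-iPS levels of Axin2 did not overlap, and the effects of medium and of cell state on it cannot be told apart.

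Among hedgehog, Notch and retinoid genes, 13 of 33 were called higher and 8 lower (6 and 4 without XEN replicate 1), with a median log2 fold change of 0.86. With all 4 libraries, 39.4% of this list were called higher and 24.2% lower, against 24.3% and 13.4% of all genes. Ihh, the hedgehog ligand of the yolk sac endoderm, fell from 10.4 and 7.19 CPM to 0.211 and 0.210 CPM (-5.44 ± 0.51, adjusted p = 0.000928). Rarb, a retinoic acid receptor that is its own target, fell from 9.93 and 11.3 CPM to 0.155 and 0.210 CPM (-5.97 ± 0.50, adjusted p = 0.000690). Crabp1, which binds retinoic acid in the cytoplasm, rose from 0.166 and 0.257 CPM to 92.3 and 156 CPM (9.06 ± 0.53, adjusted p = 0.000329), above the 11.1 and 6.31 CPM of ES. Stra8, a retinoid-induced gene of meiotic entry, rose from 0.0462 and 0.0166 CPM to 8.15 and 7.93 CPM (7.89 ± 0.68, adjusted p = 0.000734). Members tied to retinoic acid thus moved in both directions.

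Immediate early and AP-1 genes, which cells switch on within minutes of stimulation, did not move as a group. Of these, 15% were called higher and 20% lower, against 24.3% and 13.4% of all genes. Of 20, 3 were called higher and 4 lower (1 higher without either XEN library, and 6 lower without either XEN-iPS library), with a median log2 fold change of 0.04. Atf3, a stress-induced member, fell from 106 and 194 CPM to 6.84 and 1.93 CPM (-5.16 ± 0.78, adjusted p = 0.00375). Ctgf and Cyr61, targets of the YAP coactivator, fell from 494 and 408 CPM to 32.8 and 28.3 CPM (-3.96 ± 0.37, adjusted p = 0.000871) and from 193 and 268 CPM to 27.7 and 28.3 CPM (-3.14 ± 0.38, adjusted p = 0.00189; the call of Cyr61 was lost with feeder cells kept, -1.88, adjusted p = 0.0641). Jun did not pass the test (65.7 and 78.2 CPM against 35.7 and 11.7 CPM, -1.66 ± 0.57, adjusted p = 0.0590), nor did Junb (0.02 ± 0.34). Fos was called higher (17.1 and 20.6 CPM against 58.5 and 38.9 CPM, 1.29 ± 0.37, adjusted p = 0.0320), but not without XEN replicate 1 (1.01, adjusted p = 0.287), XEN replicate 2 (1.5, adjusted p = 0.106) or XEN-iPS replicate 1 (0.86, adjusted p = 0.0689).

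Adhesion genes had calls in both directions. Among the epithelial genes tested, 27.3% were called higher and 15.2% lower, near the 24.3% and 13.4% of all genes. Cdh1 (E-cadherin), the junction protein of epithelia and pluripotent cells, rose from 4 and 5.68 CPM to 52.4 and 36.4 CPM (3.11 ± 0.42, adjusted p = 0.00270). Keratins of simple epithelia, also typical of XEN cells, fell: Krt8 from 333 and 431 CPM to 20.0 and 2.85 CPM (-5.10 ± 0.97, adjusted p = 0.00780), and Krt18 from 223 and 417 CPM to 31.1 and 8.81 CPM (-4.07 ± 0.76, adjusted p = 0.00716). Epcam did not pass the test (51.2 and 67.5 CPM against 147 and 53 CPM). Of 33 epithelial genes tested, 9 were called higher and 5 lower (6 and 5 without XEN replicate 1), with a median log2 fold change of 0.16.

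Of 36 mesenchymal and cytoskeletal genes, 9 were called higher and 10 lower, with a median log2 fold change of 0.28. These are 25% and 27.8%, against 24.3% and 13.4% of all genes. The split of this list moved with single libraries: 5 higher without XEN replicate 1, 4 lower without XEN replicate 2, 13 higher and 6 lower without XEN-iPS replicate 1, and 16 lower without XEN-iPS replicate 2. Snai1, a repressor of Cdh1, fell from 93.2 and 45.8 CPM to 4.32 and 2.41 CPM (-4.40 ± 0.51, adjusted p = 0.00178), and Tpm4, a tropomyosin, from 742 and 667 CPM to 55.7 and 115 CPM (-3.16 ± 0.43, adjusted p = 0.00277). Fn1 (fibronectin) rose from 4.94 and 6.38 CPM to 98.3 and 327 CPM (5.08 ± 0.62, adjusted p = 0.00208), with 116 and 103 CPM in ES, which have few fibroblast markers (21.0 and 12.1 CPM for the 25). Fibroblast markers moved with the higher members of this list in XEN-iPS replicate 2, and their part was not tested.

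Receptors and proteases for the matrix had calls in both directions, more of them lower, but not with feeder cells kept. Integrins and adaptors had 16.7% called higher and 41.7% lower, and proteases and inhibitors 22.2% and 51.9%. Over all genes these shares were 24.3% and 13.4%. Of 24 integrins and adaptors, 10 were called lower, 4 higher and 10 neither (7 and 2 without XEN replicate 1), with a median log2 fold change of -0.93, and with feeder cells kept 4 were higher and 4 lower. Itga3, which binds laminin, fell from 26.5 and 28.4 CPM to 5.00 and 4.34 CPM (-2.64 ± 0.34, adjusted p = 0.00225), and Itgb1, the common β chain, from 331 and 284 CPM to 78.0 and 102 CPM (-1.86 ± 0.32, adjusted p = 0.00558; -0.68, adjusted p = 0.456 with feeder cells kept). Of 27 extracellular proteases and inhibitors, 14 were called lower and 6 higher (8 lower without either XEN library, 6 higher and 5 lower with feeder cells kept, 6 and 6 with cells weighted equally and limma), with a median of -1.42. Plat, the tissue plasminogen activator of parietal endoderm, fell from 125 and 78.8 CPM to 2.48 and 2.06 CPM (-5.54 ± 0.39, adjusted p = 0.000502). Adamts9, a protease that cuts proteoglycans, fell from 433 and 288 CPM to 18.5 and 3.50 CPM (-5.04 ± 0.87, adjusted p = 0.00561).

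Among DNA methylation genes, Dnmt3a and Dnmt3l rose, and Dnmt3b, as given above, did not pass the test. The TET genes, whose enzymes start demethylation, moved both ways. Over this list, 41.7% of genes tested were called higher and 12.5% lower, against 24.3% and 13.4% of all genes. Of 24 tested, 10 were called higher and 3 lower (7 and 1 without XEN replicate 1, 8 and 1 without XEN replicate 2, 10 and 5 without XEN-iPS replicate 1), with a median log2 fold change of 0.59. The 3 lower were Tet3, Mbd2 and Gadd45g, the last 2 lost without either XEN library. Dnmt3l, the cofactor of the de novo enzymes, rose from 0.508 and 0.796 CPM to 80.7 and 55.3 CPM (6.61 ± 0.51, adjusted p = 0.000580), and Dnmt3a from 9.16 and 5.21 CPM to 30.3 and 44.3 CPM (2.29 ± 0.36, adjusted p = 0.00435). Of the TET dioxygenases, Tet1 (10.3 and 5.19 CPM to 90.8 and 101 CPM, 3.57 ± 0.38, adjusted p = 0.00141) and Tet2 (1.52 and 1.43 CPM to 21.5 and 32.0 CPM, 4.08 ± 0.36, adjusted p = 0.000780) rose, and Tet3 fell from 39.0 and 31.5 CPM to 6.97 and 5.10 CPM (-2.61 ± 0.35, adjusted p = 0.00271). The maintenance pair Dnmt1 (62.8 and 56.1 CPM against 56.3 and 59.5 CPM) and Uhrf1 (62.1 and 47.9 CPM against 68.1 and 49.0 CPM) did not pass the test. Their log2 fold changes were -0.12 ± 0.27 and 0.03 ± 0.33. Zfp57, which guards imprints, rose from 8.06 and 8.93 CPM to 51.5 and 62.2 CPM (2.64 ± 0.31, adjusted p = 0.00178).

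Polycomb genes had calls in both directions, 18.75% higher and 21.9% lower, against 24.3% and 13.4% of all genes. Of 32 tested, 6 were called higher and 7 lower (5 and 2 without XEN replicate 1, 5 and 4 without XEN replicate 2), with a median log2 fold change of 0.20. Jarid2 rose from 16.1 and 14.1 CPM to 175 and 139 CPM (3.30 ± 0.34, adjusted p = 0.00122), Mtf2 from 40.5 and 28.1 CPM to 244 and 202 CPM (2.64 ± 0.35, adjusted p = 0.00263), both partners that bring PRC2 to its targets. For the core of PRC2, Ezh2 (1.10 ± 0.47, adjusted p = 0.11) and Suz12 (0.95 ± 0.29, adjusted p = 0.0399) were not called, and Eed was (1.25 ± 0.28, adjusted p = 0.0139) but not without either XEN library (1.20 in both, adjusted p = 0.180 and 0.174). In PRC1, Cbx7 (2.45 ± 0.34) and Phc1 (2.78 ± 0.37) rose (adjusted p = 0.00282 and 0.00250), Pcgf5 fell from 135 and 200 CPM to 33.0 and 16.8 CPM (-2.83 ± 0.50, adjusted p = 0.00612), and the catalytic Rnf2 did not pass the test (-0.24 ± 0.29).

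Chromatin remodellers showed few calls. Of 34 BAF and NuRD genes, 5 were called higher and 3 lower (2 and 1 without either XEN library, 3 and 2 without XEN-iPS replicate 1, 6 and 5 without XEN-iPS replicate 2), both shares under those of all genes, with a median log2 fold change of 0.09. Smarca2 (BRM) fell from 38.7 and 48.6 CPM to 3.62 and 5.81 CPM (-3.33 ± 0.37, adjusted p = 0.00158), while the other BAF ATPase, Smarca4 (BRG1), did not pass the test (98.1 and 80.4 CPM against 89.9 and 79.5 CPM, -0.15 ± 0.30). Of 26 genes of chromatin architecture, 7 were called higher and 3 lower (5 and 1 without XEN replicate 2, 8 and 5 without XEN-iPS replicate 2), with a median of 0.37. Of this architecture list 26.9% were called higher and 11.5% lower, near the 24.3% and 13.4% of all genes. Hmga1 rose from 0.111 and 0.182 CPM to 11.6 and 15.4 CPM (6.39 ± 0.53, adjusted p = 0.000675), and Morc1, an ATPase that silences transposons in germ cells, from 0.0370 and 0.116 CPM to 138 and 92.8 CPM (10.42 ± 0.71, adjusted p = 0.000470), with 31.2 and 21.7 CPM in ES.

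Of the metabolic genes, calls fell on single enzymes of several pathways. Among glycolysis genes 30.8% were called higher and 11.5% lower, against 24.3% and 13.4% of all genes. Of 26 glycolysis genes, 8 were called higher and 3 lower (4 and 1 without XEN replicate 1, 6 and 1 without XEN replicate 2, 8 and 6 without XEN-iPS replicate 2), with a median log2 fold change of 0.79, and the list summed to 4664 and 5433 CPM in XEN and to 7782 and 7965 CPM in XEN-iPS. Pfkp, the platelet form of phosphofructokinase, rose from 0.194 and 0.108 CPM to 29.1 and 32.3 CPM (7.59 ± 0.45, adjusted p = 0.000329), and Ldhb, the B chain of lactate dehydrogenase, from 24.3 and 27.6 CPM to 176 and 394 CPM (3.33 ± 0.45, adjusted p = 0.00277). Hk2 (222 and 344 CPM against 152 and 233 CPM), Aldoa (380 and 364 CPM against 559 and 868 CPM) and Ldha (498 and 515 CPM against 910 and 853 CPM) did not pass the test.

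Of 29 genes of one-carbon and amino acid metabolism, 6 were called higher and 3 lower (3 and 1 without XEN replicate 1, 4 and 0 without XEN replicate 2, 7 and 6 without XEN-iPS replicate 2), with a median of 0.06. With all 4 libraries, 20.7% of this list were called higher and 10.3% lower, under the 24.3% and 13.4% of all genes. Tdh, the threonine dehydrogenase that mouse pluripotent cells depend on, rose from 0.351 and 0.282 CPM to 124 and 159 CPM (8.71 ± 0.40, adjusted p = 0.000258). Amt, of the glycine cleavage system, rose from 0.869 and 0.887 CPM to 27.3 and 42.7 CPM (5.21 ± 0.38, adjusted p = 0.000514). Gldc and Shmt2, which act in the same routes, did not pass the test (-0.41 ± 0.33 and 0.06 ± 0.30). Among cholesterol genes tested, 17.2% were called higher and 6.9% lower, under the 24.3% and 13.4% of all genes. Of 29 cholesterol genes, 5 were called higher and 2 lower with a median of 0.51, and these counts were unstable (0 and 1 without XEN replicate 1, 2 and 1 without XEN replicate 2, 4 and 4 without XEN-iPS replicate 1, 12 and 3 without XEN-iPS replicate 2).

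Genes of iron, retinol, vitamin and metal handling had calls in both directions. Of those tested, 36.8% were called higher and 26.3% lower, against 24.3% and 13.4% of all genes. Of 19 genes, 7 were called higher and 5 lower (6 and 3 without XEN replicate 1, 8 and 3 without XEN replicate 2), with a median of 0.98. Ferroportin (Slc40a1), the iron exporter, rose from 0.0832 and 0.0995 CPM to 15.6 and 13.1 CPM (7.18 ± 0.51, adjusted p = 0.000501), above the 1.13 and 1.78 CPM of ES, and Slc39a8, an importer of zinc and manganese, fell from 25 and 29.8 CPM to 0.704 and 0.497 CPM (-5.58 ± 0.44, adjusted p = 0.000602). The ferritin genes Fth1 and Ftl1, among the most abundant transcripts, did not pass the test (-0.16 ± 0.36 and -0.35 ± 0.42).

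Cell cycle genes of the S, G2 and M phases had few calls. Of 25 S phase genes, 1 was called higher and 1 lower, and of 25 G2 and M phase genes 2 were called higher and none lower (0 and 0 without XEN replicate 1, 0 higher in both without XEN replicate 2, and 3 S phase genes lower without XEN-iPS replicate 1), with medians of -0.01 and 0.16, against 24.3% and 13.4% of all genes. Neither Pcna (59.6 and 28.3 CPM against 33.4 and 33.0 CPM) nor Mki67 (42.5 and 20.4 CPM against 18.8 and 24.5 CPM) passed the test. The G1 list was split, with 6 of 26 called higher and 5 lower (4 and 0 without XEN replicate 1, 4 and 2 without XEN replicate 2). Ccnd1 rose from 3.43 and 6.22 CPM to 56.8 and 173 CPM (4.41 ± 0.63, adjusted p = 0.00314) and its partner Cdk6 from 0.148 and 0.464 CPM to 14.4 and 38.0 CPM (6.24 ± 0.78, adjusted p = 0.00214). Ccne1, the cyclin of S phase entry, rose from 27.5 and 19.7 CPM to 136 and 112 CPM (2.33 ± 0.33, adjusted p = 0.00308). Cdkn2a (106 and 133 CPM against 76.4 and 105 CPM, -0.51 ± 0.33) did not pass the test, and both XEN-iPS libraries lay above the 10.7 and 4.21 CPM of ES, with fibroblast RNA also higher in XEN-iPS than in ES. Among G1 genes 23.1% were called higher and 19.2% lower, and among apoptosis and p53 target genes 27.6% and 20.7%. The shares over all genes were 24.3% and 13.4%. Of 29 apoptosis and p53 target genes, 8 were called higher and 6 lower (2 and 0 without XEN replicate 1, 4 and 0 without XEN replicate 2), with a median of 0.09, and the BH3-only gene Bcl2l11 (Bim) rose from 2.68 and 2.98 CPM to 25.6 and 26.4 CPM (3.10 ± 0.34, adjusted p = 0.00142).

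Interferon-stimulated genes were mostly higher in XEN-iPS. Of 26 tested, 17 were called higher and 1 lower, with a median log2 fold change of 4.06; leaving out 1 library at a time gave 13 to 18 higher, with 2 lower without either XEN-iPS library. The membrane proteins Ifitm1 and Ifitm3, also known from early germ cells, rose from 0.342 and 0.589 CPM to 567 and 736 CPM (10.32 ± 0.59, adjusted p = 0.000329) and from 1.01 CPM in both XEN libraries to 440 and 1013 CPM (9.36 ± 0.61, adjusted p = 0.000435). Bst2 (tetherin) rose from 6.15 and 11 CPM to 132 and 147 CPM (3.91 ± 0.44, adjusted p = 0.00157). These 3 genes were also well above XEN in ES, at 90.2 and 118 CPM, 264 and 294 CPM, and 35.8 and 33.4 CPM. Isg15, induced by interferon in most cells, was at 0.129 and 0.365 CPM in XEN, 9.74 and 49.4 CPM in XEN-iPS (6.71 ± 0.97, adjusted p = 0.00329) and 0.164 and 0.246 CPM in ES. Among XEN-iPS cells with pluripotency markers 15 of the genes were called higher, and among deep cells with few fibroblast or macrophage UMIs 15. Macrophage and fibroblast markers (137 and 517 CPM in XEN-iPS replicate 2) moved with Isg15, and their part was not tested.

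Most chemokine and cytokine genes tested were also called higher. Of 27 tested, 17 were called higher and 5 lower, with a median of 3.65, with 3 lower without either XEN library, and 13 were higher without XEN replicate 1 or among XEN-iPS cells with pluripotency markers. Spp1 (osteopontin), also a gene of pluripotent cells, rose from 0.249 and 0.423 CPM to 114 and 212 CPM (8.78 ± 0.58, adjusted p = 0.000435), with 146 and 132 CPM in ES. Ccl7, Cxcl5 and Cxcl14 had 2, 0 and 0 UMIs in XEN, 21.8 and 137 CPM, 4.56 and 36.2 CPM, and 10.7 and 35.1 CPM in XEN-iPS, and at most 1.52 CPM in ES. XEN-iPS replicate 2 was the higher library for each of these 3, as it was for fibroblast markers. Cxcl1 went from a log2 fold change of 6.24 (adjusted p = 0.0114) to 3.32 without that library. Of 20 antigen presentation genes, 8 were called higher and 1 lower (5 higher without XEN replicate 1, 3 lower without XEN-iPS replicate 2), with a median of 1.55. Their summed level went the other way, from 2762 and 2088 CPM in XEN to 632 and 966 CPM in XEN-iPS, and Calr, a member of this list too, held 2349 and 1446 CPM of it in XEN. B2m (207 and 424 CPM against 54.7 and 246 CPM) did not pass the test.

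Markers of further lineages were low in both groups. Of 12 mesoderm and neural markers tested 9 were called higher (4 without XEN replicate 1), 5 of them with 0 to 3 UMIs in XEN, so that they passed the filter on low counts only through XEN-iPS; the list summed to 19.3 and 20.7 CPM in XEN and 56.7 and 45.8 CPM in XEN-iPS. Of 11 trophoblast markers 6 were called higher, 3 of these with 0 to 3 UMIs in XEN, and 2 lower (4 higher without XEN replicate 1), summing to 38.8 and 40.7 CPM and to 57.6 and 78.8 CPM. Tfap2c, shared by trophoblast and germ cells, had 1 UMI in XEN and was at 30.9 and 62.4 CPM in XEN-iPS, a ratio of 10129 (1817 to 400151), and at 4.53 and 2.98 CPM in ES. None of the 13 mitochondrially encoded genes was called in either direction by edgeR (2 higher without XEN-iPS replicate 1), and their summed level was 19977 and 14770 CPM in XEN and 22566 and 13887 CPM in XEN-iPS. Of 10 heat shock genes 2 were called higher and none lower (1 without either XEN library, 3 and 1 without XEN-iPS replicate 2), and Hspb1 rose from 4.68 and 13.8 CPM to 1206 and 538 CPM (6.46 ± 0.84, adjusted p = 0.00240), with 715 and 808 CPM in ES.

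Grouping genes by chromosome gave whole-chromosome differences from ES in both the XEN and the XEN-iPS libraries. For 4937 genes with at least 10 CPM in the XEN, XEN-iPS and ES libraries, the median log2 ratio to the mean of ES was taken per chromosome, less that of all these genes. Chromosome 14 (145 genes) was at -0.08 and -0.09 in XEN and at -0.39 and -0.67 in XEN-iPS. Of the 535 genes of chromosome 14 that were tested, 23.7% were called lower in XEN-iPS, against 13.4% of all genes, and 18.5% higher. The lower level of this chromosome was shared by the XEN-iPS duplicates. Chromosome 11 (447 genes) was higher in both, at 0.03 and 0.02 in XEN and at 0.21 and 0.31 in XEN-iPS. XEN itself departed from ES on some chromosomes, as on chromosome 19 (0.46 and 0.50) and chromosome 4 (-0.32 in both XEN libraries).

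Other chromosomes differed between the XEN-iPS duplicates. Chromosome 1 (274 genes) was at -0.02 in both XEN libraries, -0.51 in XEN-iPS replicate 1 and 0.04 in replicate 2. Chromosome 6 (229 genes) was at 0.30 and 0.21 in XEN, 0.56 in XEN-iPS replicate 1 and 0.02 in replicate 2. On chromosome 8 (305 genes) XEN was at 0.16 and 0.15, XEN-iPS replicate 1 at 0.21 and replicate 2 at -0.19. Replicate 1 was thus below replicate 2 on chromosome 1 and above it on chromosomes 6 and 8. Chromosome 13 (152 genes) was at -0.29 and -0.19 in XEN, -0.16 in XEN-iPS replicate 1 and -0.56 in replicate 2. The XEN-iPS duplicates also lay 0.36 apart on chromosome 16, 0.31 on chromosome 19 and 0.30 on chromosome 2, the last with replicate 2 higher, and at most 0.27 apart on each of the others. These are descriptions with no test, in duplicates that also differed in Y-linked RNA, and the number of chromosomes per cell was not measured.

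**Figure D5:**
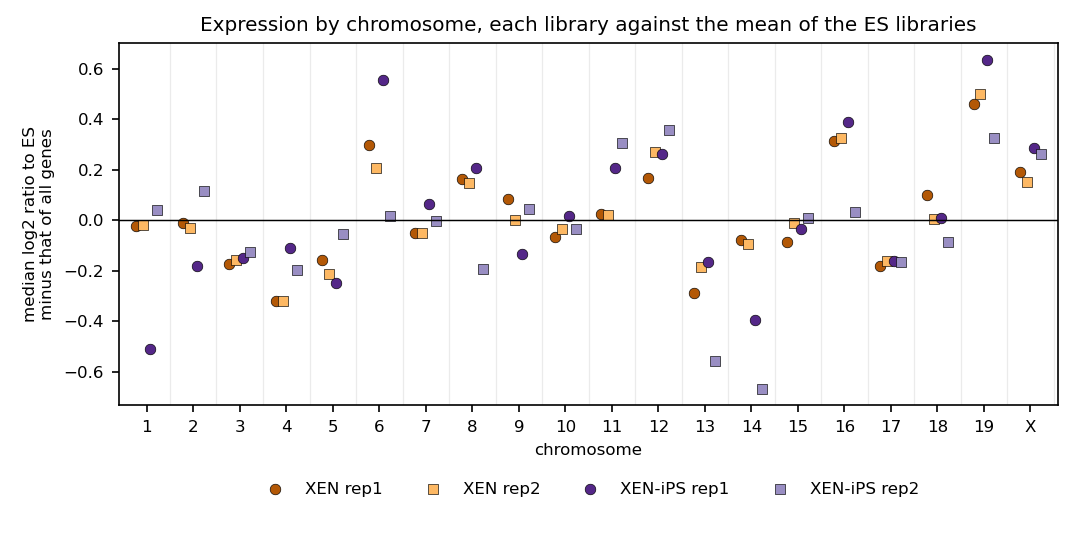
Median log2 ratio of each library to the mean of the ES libraries over the genes of a chromosome, less the same over all 4937 genes (y axis), for each chromosome (x axis); each point is 1 library. XEN duplicates lie within 0.11 of each other on each chromosome drawn, while XEN-iPS duplicates lie more than 0.3 apart on chromosomes 1, 6, 8, 13, 16 and 19 and both lie below the other libraries on chromosome 14.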

How the data were processed

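Droplet libraries (10x, 3' v2) of the 3F-4 XEN line before and after reprogramming were studied. The deposited values are whole UMI counts per cell and gene, which the authors made with SEQC against mm10 (build as listed in the submitters' processing notes), with removal of low-complexity cells and of cells rich in mitochondrial RNA. Counts were summed per library over cells with at least 500 genes and under 5 UMIs of COL1A1, COL1A2 and COL3A1; no doublet caller was run. Kept totals were 52320828 to 120619088 UMIs. Symbols (22936) were placed with GENCODE for 21979.

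The 2 XEN-iPS and 2 XEN libraries were compared with edgeR 4.0.16 (quasi-likelihood test, TMM, filterByExpr, no block, 2 residual degrees of freedom; R 4.3.3). Calls needed a Benjamini-Hochberg adjusted p below 0.05 with a log2 difference of 1 or more. Adjusted p-values cover all genes tested. Errors after ± are SE, taken as the size of the log2 fold change over the square root of the test's F statistic. For genes with few UMIs in a group they can be smaller than the counting error. The steps were tested on simulated data. The alternatives were DESeq2 1.42.0, limma 3.58.1 on cells weighted equally, other filters and scalings, and each library left out; 2 selections of cells were added after seeing the data. Duplicate numbers did not pair libraries (correlation of duplicate differences 0.026). For genes with 1 to 3 UMIs in a group the ratio of pooled CPM has an exact 95% interval, and against 0 a floor of 3 UMIs over the group gives a bound; intervals cover counting error only. Members and lists were chosen with earlier results of these data known. Named genes were the extremes by fold change and by level, the key members and extremes of each list, genes the study names, called members of the check lists and genes that differ most between the XEN-iPS duplicates. Promoter windows are RefSeq, GRCm38.p6 (27025 genes).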

Additional observations from a re-analysis of the deposited data

How the results depend on the processing

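The counts of 3800 genes higher, 2092 lower and 5892 in all ranged from 1684 to 4221, from 930 to 3303 and from 2614 to 7524 when 1 library was left out, lowest without XEN replicate 1 and highest without XEN-iPS replicate 2; with 1 library in a group, its spread is assumed to be that of the other group. With cells weighted equally and limma, 1901, 1100 and 3001 were called, and with feeder cells kept 1262 were lower. The other alternatives stayed within 1.5 times: DESeq2 gave 4068 higher and 2407 lower with a median log2 fold change of 0.31 against 0.11, and all 20 libraries in the model gave 4712 and 2935. With the replicate number as a block, 3765 were higher, 2223 lower and 5988 in all; the numbers do not pair these libraries, and the shift is within 1.5 times. Of the named genes, 90 lost their call without XEN replicate 1, 67 without XEN replicate 2, 20 without XEN-iPS replicate 1, 8 without XEN-iPS replicate 2, 86 with limma and 49 with feeder cells kept. Itgb5, an integrin chain, is not among these 49. It lost its call too and its sign turned, to 0.13 (adjusted p = 0.914, edgeR) with feeder cells kept, where fibroblast RNA was also higher. The cause was not tested. Genes under about 1 CPM rest on few UMIs, so their fold changes are imprecise.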

Other observations

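Of 619 long intergenic RNAs tested, 37.3% were called higher and 9.05% lower, against 23.8% and 13.6% of 14476 protein-coding genes. The filter on low counts keeps genes that are on in XEN-iPS alone. How many long intergenic RNAs passed it that way was not counted, so these shares are descriptions only. Platr10, a long RNA of pluripotent cells, had 1 UMI in XEN and a mean of 80.5 CPM in XEN-iPS.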
